A study of Homo sapiens with 6 samples.

Results

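The genes compared here were those that a TIRR iCLIP experiment and an RNA-seq experiment in untreated U2OS cells both listed, with at least 50 counts in RNA-seq. There were 11146 such genes of the 39020 listed anywhere in the series, and 10405 of them were listed in both iCLIP libraries. U2OS is a human osteosarcoma cell line. TIRR, the product of NUDT16L1, is an RNA-binding protein that holds the DNA repair factor 53BP1, the product of TP53BP1, away from chromatin by covering its Tudor domain. The 2 untreated iCLIP libraries came from U2OS cells stably transfected with a FLAG-tagged TIRR (genotype TIRR_FLAG), and the untreated RNA-seq library came from cells of genotype WT. Neither group was irradiated, and each assay also had libraries from irradiated cells, which received an X-ray dose of 5 Gy and recovered for 4 h. A library of cells with the empty vector was not analysed here, so the ratios below have no background from a pull-down without TIRR. The labels do not say whether the 2 iCLIP replicates were separate cultures, so their spread may be technical. Assay and genotype changed together, and their parts in a difference cannot be told apart.

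In iCLIP, ultraviolet light joins a protein to the RNA it touches in living cells, the protein is pulled down with a trimmed piece of that RNA, and each piece is read as 1 cDNA. A gene's iCLIP count therefore depends both on how much of its RNA is present and on how often the protein is crosslinked to it, and any part of the transcript, introns included, can be counted. RNA-seq of whole cells mostly reads the abundant, spliced transcripts of the cytoplasm. The ratio of a gene's share of the iCLIP counts to its share of the RNA-seq counts sets the first against the second. Nascent transcripts, which still carry their introns, and noncoding RNAs that stay in the nucleus, such as NEAT1 and MALAT1, are in the nuclear part of that RNA.

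The iCLIP libraries held 781997 and 799709 counts in genes, and the RNA-seq library held 13015406. Counts outside genes, 30.6% and 30.8% of the iCLIP totals and 44.4% of the RNA-seq total, were left out of the shares. The RNA-seq library had at least 50 counts in 8 of 12 osteoblast and mesenchymal markers, which summed to 120923, and in 4 of 12 markers of other cell types, which summed to 345. COL1A2, TWIST1 and BGLAP had 6 counts or fewer in RNA-seq, and IBSP was not listed. Of the 14708 genes with at least 50 RNA-seq counts, 3562 were not listed in the untreated iCLIP tables, among them genes with very many RNA-seq counts such as COL1A1 at 35832, FLNA at 25005 and SPARC at 23955. A gene missing from the iCLIP tables was not read as a gene with 0 counts, because 112 of 1010 genes of 100 to 300 kb with at least 500 RNA-seq counts were missing from all 4 iCLIP tables, while those listed had a median of 330 counts there. Among all genes with at least 50 RNA-seq counts, the share missing from the 4 tables went down with length, from 58.1% below 1 kb and 36.3% from 1 to 3 kb to 6.46% above 300 kb. Listed genes below 1 kb had a median of 3 counts over those tables, so for short genes a missing row cannot be told apart from a count of 0. All missing genes stayed outside the comparison.

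A gene was called higher or lower in iCLIP than in RNA-seq when its edgeR quasi-likelihood test gave an adjusted p below 0.05 and its ratio was at least 4-fold in each iCLIP library. By that rule 1571 genes (14.1%) were higher in iCLIP, 1950 (17.5%) were lower, and 7625 were neither. The test alone passed 8354 genes, 3990 higher and 4364 lower, so the fold rule decided the calls. The RNA-seq arm had 1 library, which the test assumed to vary like the iCLIP pair, whose spread may be technical. The median log2 ratio was -0.16, with 5% of genes below -4.16 and 5% above 3.35.

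The 2 iCLIP libraries gave nearly the same ratios. The median difference between them was 0.30 on the log2 scale, and 0.16 over the 3452 genes with at least 100 iCLIP counts, far less than the 4-fold rule. Their counts differed by more than sampling noise, with a chi-square of 1.41 per degree of freedom, so they were kept as 2 libraries. The irradiated libraries, which did not enter the calls, gave a ratio past 4-fold in each library for 1315 of the 1571 higher genes (83.7%) and 1575 of the 1950 lower genes (80.8%), against 13.3% and 17.9% of all genes compared. No called gene went past 4-fold in the opposite direction there. With edgeR, 1 of the 11146 genes had an assay difference that changed with irradiation at an adjusted p below 0.05, and 708 had an unadjusted p below 0.05.

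The long noncoding RNAs NEAT1 and MALAT1 took the largest iCLIP counts of all genes compared. NEAT1, the RNA on which paraspeckles are built, had 21052 and 19748 iCLIP counts against 4309 in RNA-seq. It took 2.69% and 2.47% of the iCLIP gene counts and 0.0331% of the RNA-seq gene counts, a ratio of 77.9 (95% counting interval 75.5 to 80.4; edgeR adjusted p = 1.09e-05, the smallest in the fit). MALAT1, an abundant RNA of nuclear speckles, had 10933 and 11033 iCLIP counts against 2248, or 1.40% and 1.38% against 0.0173%, a ratio of 80.4 (interval 77.0 to 84.0; edgeR adjusted p = 1.09e-05). Both lie on chromosome 11, NEAT1 at chr11:65422798-65445540 and MALAT1 at chr11:65497738-65506516 in GRCh38.p14, and RefSeq classes both as long noncoding RNAs. The log2 ratios were 6.28 and 6.33, and the SD over the iCLIP pair was 0.0881 and 0.0136. In RNA-seq, NEAT1 ranked 289th and MALAT1 840th by counts. Per kb of gene length, NEAT1 had 915 iCLIP counts and 190 RNA-seq counts, and MALAT1 had 1252 and 256.

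**Figure D1:**
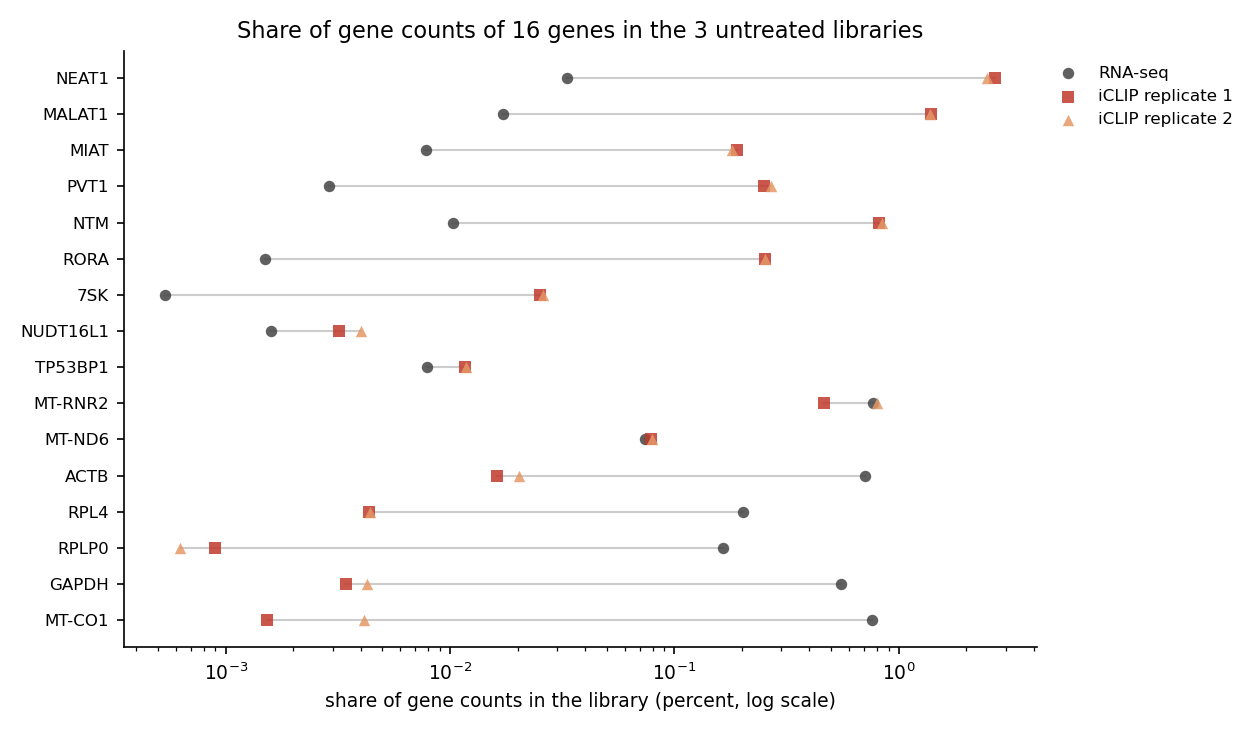
Share of gene counts (percent, log scale) of 16 genes in the untreated RNA-seq library (circles) and the untreated iCLIP replicates 1 (squares) and 2 (triangles). NEAT1, MALAT1, MIAT, PVT1, NTM, RORA and 7SK lie at higher shares in both iCLIP libraries, ACTB, RPL4, RPLP0, GAPDH and MT-CO1 at lower ones, and NUDT16L1, TP53BP1, MT-RNR2 and MT-ND6 within 4-fold of their RNA-seq share.

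The transcripts of TIRR and 53BP1 themselves were not called. NUDT16L1 had 25 and 32 iCLIP counts against 208 in RNA-seq, a log2 ratio of 1.18 (edgeR adjusted p = 0.00479). That log2 ratio was 4.05 above the median of genes of 1 to 3 kb. The tagged TIRR is made from a transgene, and whether its RNA counts toward NUDT16L1 was not tested. TP53BP1 had 91 and 94 against 1029, a log2 ratio of 0.57 (edgeR adjusted p = 0.0113), which was -0.84 relative to the median of genes of 100 to 300 kb. Both ratios were above 0 in each library and neither reached 4-fold. The TP53BP1 span overlaps that of TUBGCP4, which had 620 RNA-seq counts.

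Among called genes with an approved symbol, the highest ratios belonged mostly to long genes and long noncoding RNAs. The highest log2 ratio of all genes compared, 8.02, was that of a gene without a RefSeq class. RORA, a nuclear receptor gene of 740 kb, had 1973 and 2021 iCLIP counts against 195 in RNA-seq, a log2 ratio of 7.39 (edgeR adjusted p = 1.09e-05). RORA thus ranked 10th by iCLIP counts and 7942nd by RNA-seq counts. SMOC2, which encodes a calcium-binding matrix protein, had 561 and 617 against 62, a log2 ratio of 7.28. MAGI2, a synaptic scaffold gene of 1434 kb, had 531 and 583 against 88, a log2 ratio of 6.70, and its span holds the antisense RNA MAGI2-AS3, with 635 RNA-seq counts. NTM, which encodes a neural adhesion protein, had 6363 and 6712 against 1348, a log2 ratio of 6.32, and ranked 3rd by iCLIP counts. The other 9 of the 15 highest called genes with an approved symbol, beside MALAT1 and NEAT1, were LINC00299, SPACA6, PVT1, EPIC1, GNAS-AS1, LINC01876, ZC3H12B, LINC02109 and IMMP2L, with log2 ratios from 6.19 to 6.68. Of these 15, 8 were noncoding. SPACA6, at 23.0 kb, was among the few that were not long.

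Several mitochondrial and housekeeping mRNAs with very many RNA-seq counts were among the lowest ratios. A gene needed at least 1 iCLIP count to be compared, so a ratio this low also needed a large RNA-seq count. MT-CO1, a subunit of respiratory complex IV made in mitochondria, had 12 and 33 iCLIP counts against 98668 in RNA-seq, a log2 ratio of -8.04. RPLP0, a protein of the ribosomal stalk, had 7 and 5 against 21481, a log2 ratio of -7.71, and TUBA1B, an alpha-tubulin, had 7 and 5 against 19517, a log2 ratio of -7.57 (edgeR adjusted p = 1.09e-05 for both). GAPDH, the glycolytic enzyme, had 27 and 34 against 71596, so that its share was 143-fold lower in iCLIP (95% counting interval 111 to 186). Among the 15 lowest called genes with an approved symbol, 6 were mitochondrial: MT-CO1, MT-ATP8, MT-CO2, MT-CO3, MT-ND1 and MT-ND4L. The others beside RPLP0 and TUBA1B were BEST1, RHOA, MIF, GPS2, CAND2, EIF4A1 and BTNL12P, and all of these but GPS2 overlapped a gene with at least 50% as many RNA-seq counts or had lengths that differed by more than 1.1-fold between the tables.

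Gene length went with the ratio over its whole range. Spearman's rho between the log2 ratio and the gene length was 0.63 across the 11146 genes, 0.67 across the 9010 protein-coding and 0.45 across the 794 long noncoding ones. The genes share libraries and the ratio shares the RNA-seq count with other measures, so these values are descriptions. The median log2 ratio was -3.12 for genes below 1 kb, -2.87 from 1 to 3 kb, -2.04 from 3 to 10 kb, -0.91 from 10 to 30 kb, 0.14 from 30 to 100 kb, 1.41 from 100 to 300 kb and 3.06 above 300 kb. Of the 580 genes above 300 kb, 431 were higher (74.3%) and 3 lower. Of the 148 genes below 1 kb, 86 were lower (58.1%) and 2 higher. The higher genes had a median length of 166 kb, the lower ones 10.2 kb and the rest 38.5 kb.

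**Figure D2:**
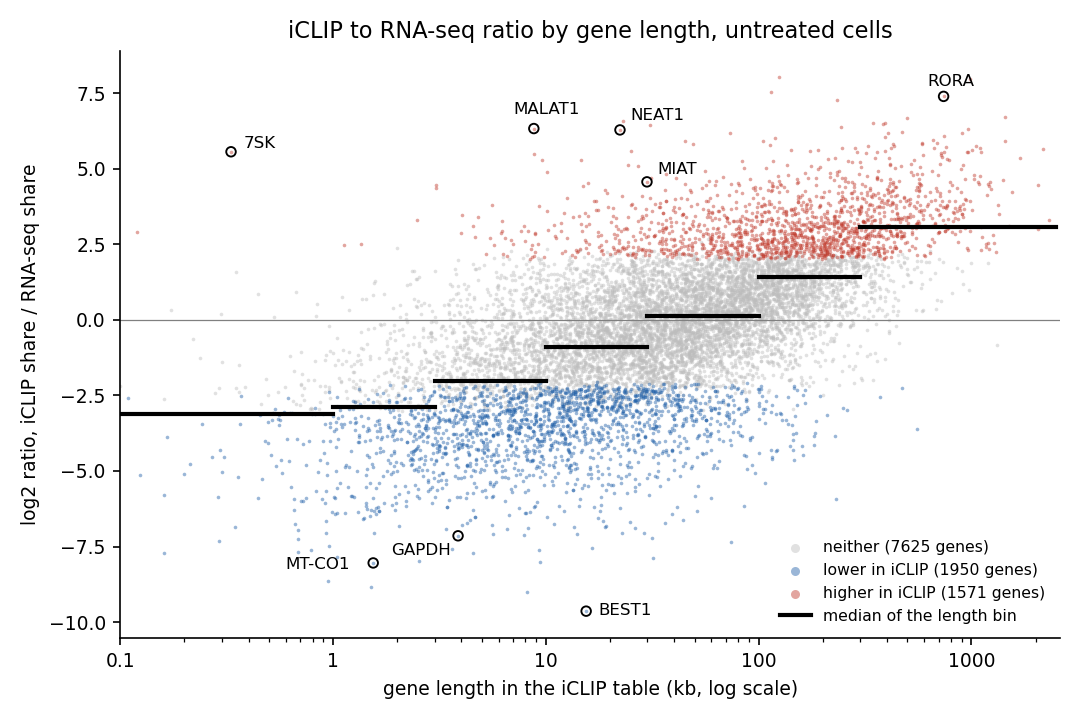
Log2 ratio of the iCLIP share to the RNA-seq share against gene length (kb, log scale), 1 point a gene, with the genes higher in red, lower in blue and neither in grey. The black bars are medians of the 7 length bins and climb from -3.12 to 3.06, while 7SK, MALAT1 and NEAT1 lie above genes of their length (10 genes shorter than 0.1 kb in the iCLIP table are outside the axis).

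The 2 assays differed in how counts per kb fell with length. The median RNA-seq gene had 285 counts per kb below 1 kb, 23.3 from 10 to 30 kb and 0.503 above 300 kb. The median iCLIP gene, as the mean of the 2 libraries, had 2.05, 0.745 and 0.296 in the same bins. Among the genes compared, iCLIP counts thus lay closer to a constant number per kb of gene, introns included, than RNA-seq counts did. The minimum of 50 RNA-seq counts keeps RNA-seq counts per kb high in short genes, while iCLIP needed only 1 count. Below 1 kb the median summed iCLIP count was 2, near that floor. With no minimum of RNA-seq counts, rho between ratio and length was 0.311 instead of 0.633. How far the minimum shaped the counts per kb was not tested. Genes with more RNA-seq counts had lower ratios, with a rho of -0.35, but that count is also the denominator of the ratio. At the 50-count minimum, the 170 genes with 50 to 54 RNA-seq counts had a median log2 ratio of 1.14, and the 222 genes with 45 to 49 counts just outside it had 1.01.

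**Figure D3:**
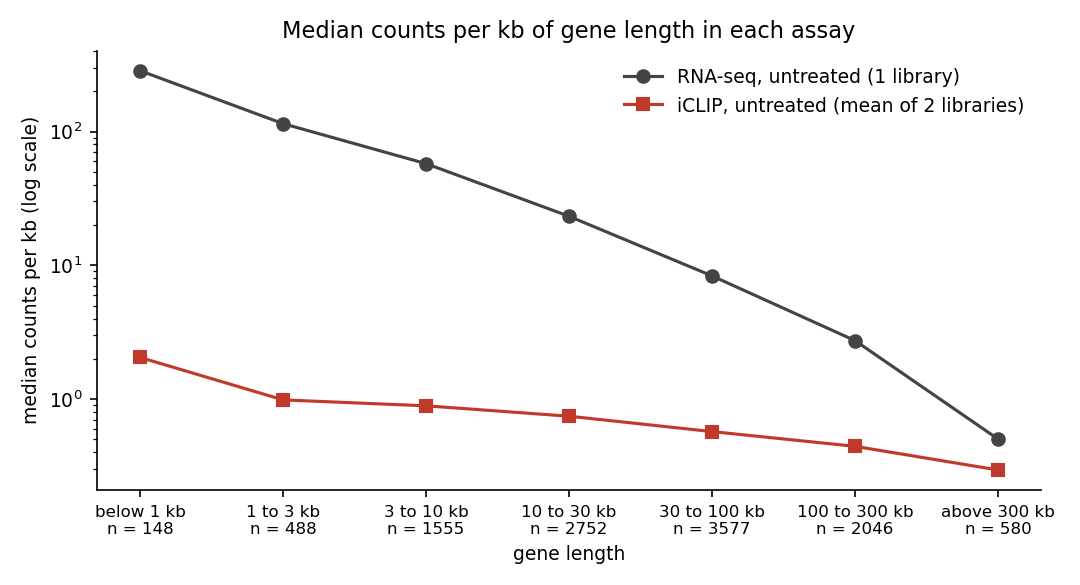
Median counts per kb of gene length (log scale) in 7 length bins, for the untreated RNA-seq library (circles) and the mean of the 2 untreated iCLIP libraries (squares). From the shortest to the longest bin the RNA-seq median goes from 285 to 0.503 and the iCLIP median from 2.05 to 0.296.

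A small set of genes went against the length pattern, and those named here were chosen after their values were seen. Of the 2191 genes of up to 10 kb, 42 were higher (1.92%). 7SK, the small nuclear RNA that holds back the elongation factor P-TEFb, is 0.331 kb long and had 197 and 207 iCLIP counts against 70 in RNA-seq, a log2 ratio of 5.56 (edgeR adjusted p = 1.12e-05). MAGEA4-AS1, a noncoding RNA of 9.54 kb, had 386 and 369 against 158, a log2 ratio of 5.29. Protein-coding genes were in this set as well. NOL3, an inhibitor of apoptosis, had 148 and 156 against 181, and PABPN1, the nuclear poly(A)-binding protein, had 555 and 470 against 845, log2 ratios of 3.79 and 3.32. The readthrough gene BCL2L2-PABPN1 covers PABPN1, and counts of the pair cannot be told apart. POLR2H, a subunit shared by the RNA polymerases, had 197 and 193 against 511, a log2 ratio of 2.65.

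At the other end, 60 of the 2626 genes listed above 100 kb were lower (2.28%). A listed length, which also sets the length bin, can exceed the RefSeq span of a gene. ACTB was listed at 37.5 kb and lies at chr7:5527148-5530601, and CFL1 was listed at 39.0 kb and lies at chr11:65854673-65858180. How many of the 60 genes had such lengths was not tested. PIN4, a peptidyl-prolyl isomerase, had 50 and 45 iCLIP counts against 16014 in RNA-seq, a log2 ratio of -4.35. LDHB, a lactate dehydrogenase subunit listed at 122.5 kb, had 33 and 19 against 8609, a log2 ratio of -4.32. Of the 40 such genes with a RefSeq position, 17 overlapped another listed gene with at least 50% as many RNA-seq counts. FSIP1, with 6383 RNA-seq counts, overlaps THBS1, with 7945, and SHC4, with 2012, overlaps EID1, with 1987.

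Overlapping genes more often had similar RNA-seq counts than similar iCLIP counts. The pairs named here were chosen after their values were seen. BEST1, a channel gene of the eye, had 22929 RNA-seq counts and 1 and 2 iCLIP counts, and it overlaps FTH1, the ferritin heavy chain, which had 26596 RNA-seq counts and 14 and 9 iCLIP counts. The summed iCLIP count of BEST1 was 3, so its ratio of 0.00108 has a 95% counting interval of 0.000222 to 0.00315. STEAP3-AS1 had 3443 RNA-seq counts and STEAP3, a metalloreductase on the opposite strand, had 3242, while their iCLIP counts were 2 and 1 against 78 and 75. CAND2 and RPL32, also on opposite strands, had 6763 and 7187 RNA-seq counts and 1 and 2 against 18 and 11 iCLIP counts. Over 251 pairs of overlapping genes on opposite strands, the RNA-seq counts lay within 1.5-fold of each other in 102 (40.6%) and the iCLIP counts in 30 (11.95%). A partner was the overlapping gene with the most RNA-seq counts. Both genes of a pair needed at least 50 RNA-seq counts but only 1 iCLIP count, so the choice rests on RNA-seq. The iCLIP counts of genes are also far lower, with a larger counting error. The part of this choice and of that error in the difference was not tested. Pairs of genes that do not overlap were not compared. Strandedness in the RNA-seq counts was not given in the sources used here, so reads of a gene and of its antisense partner cannot be told apart.

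**Figure D4:**
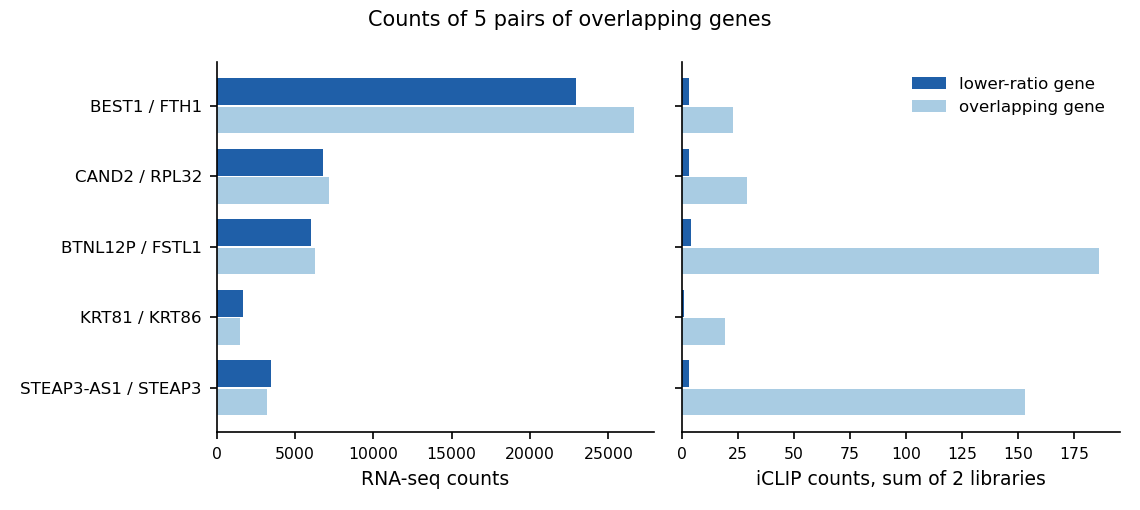
RNA-seq counts (left) and summed iCLIP counts of the 2 untreated libraries (right) of 5 pairs of overlapping genes, with the lower-ratio gene in dark blue and its partner in light blue. The 5 pairs were chosen after their values were seen. Within each pair the RNA-seq bars are of similar length, for example 22929 for BEST1 and 26596 for FTH1, while the iCLIP bars are not. EIF4A1 and SENP3-EIF4A1, with 8447 and 972 RNA-seq counts, are not shown.

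Such partners were more common among the lower genes. A partner with at least 50% as many RNA-seq counts was present for 448 of 1600 lower genes with a position (28.0%), 238 of 1399 higher ones (17.0%) and 2187 of all 9919 (22.05%). The gene models of the 2 tables also differed. For 571 genes (5.12%) the lengths in the 2 tables differed by more than 1.1-fold, and 83 of the 133 genes with an iCLIP length no more than 50% of the RNA-seq length were lower. RHOA, a small GTPase gene, was listed at 947 bases for iCLIP and 53343 for RNA-seq, and had 1 and 1 counts against 8230. MIF, a cytokine gene, was listed at 4 bases for iCLIP and 245 for RNA-seq, and had 1 and 0 counts against 4753. How far such lengths set these ratios was not tested. Over the 7399 genes with a position, lengths within 1.1-fold and no such partner, 15.4% were higher and 13.8% lower, and rho with length was 0.66. That restriction, like the next values given over it, was added after the data were seen.

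RNA class went with the ratio apart from length. Without that restriction the 794 long noncoding genes had a median log2 ratio of -0.35. Of the 794, 164 were higher (20.7%) and 173 lower (21.8%), against 14.1% and 17.5% of all genes. A partner with at least 50% as many RNA-seq counts was present for 471 of the 794. With the restriction, the 311 remaining long noncoding genes had a median of 1.12, with 103 higher (33.1%) and 37 lower (11.9%). The 7031 protein-coding genes left by it had a median of 0.09. At matched length the noncoding genes lay above the coding ones in every bin but the longest. The 2 shortest bins held only 6 noncoding genes below 1 kb and 11 from 1 to 3 kb. From 3 to 10 kb the medians were -0.69 for 47 noncoding and -2.12 for 839 coding genes, from 10 to 30 kb 0.58 for 50 and -0.81 for 1719, and from 100 to 300 kb 2.60 for 80 and 1.41 for 1468. Above 300 kb they were 2.94 for 39 noncoding and 3.09 for 412 coding genes. Per kb, much of that difference was in the RNA-seq counts. From 10 to 30 kb the medians were 0.9502 iCLIP counts for the noncoding and 0.923 for the coding genes, against 7.99 and 27.5 RNA-seq counts. Below 1 kb the noncoding iCLIP median was also above the coding one (2.92 against 1.92). In every other bin it was lower, for example 0.892 against 1.05 from 3 to 10 kb and 0.345 against 0.487 from 100 to 300 kb.

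Among the named nuclear long noncoding RNAs, 15 of 24 listed were compared, with a median log2 ratio of 2.74. Of these, 9 were higher (60%) and 1 lower (6.67%), against 14.1% and 17.5% of all genes. The other 9 had fewer than 50 RNA-seq counts. MIAT, an RNA that forms nuclear patches, had 1493 and 1443 iCLIP counts against 1020 in RNA-seq, a log2 ratio of 4.57, and PVT1, a neighbour of MYC, had 1970 and 2161 against 376, a log2 ratio of 6.50. The list was not uniform. TUG1 had 82 and 103 against 3322, and NORAD, which acts in the cytoplasm on PUMILIO proteins, had 71 and 65 against 2934, log2 ratios of -1.12 and -1.39 that reached no call. OIP5-AS1 was the 1 lower gene, with 0 and 3 counts against 1019, its lengths differed between the tables, and its call was lost with DESeq2. Of 1843 intergenic LINC genes listed, 1667 had fewer than 50 RNA-seq counts. The 146 compared had a median of 1.66, with 60 higher (41.1%) and 16 lower (11.0%).

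Antisense RNAs were the exception among noncoding genes. The 433 compared of 1656 listed had a median log2 ratio of -1.35. Of the 433, 130 were lower (30.02%) and 45 higher (10.4%), against 17.5% and 14.1% of all genes. A partner with at least 50% as many RNA-seq counts was present for 340 of the 433. VIM-AS1 had 15 and 15 iCLIP counts against 8603 in RNA-seq, and it overlaps VIM, the vimentin gene, with 36294 RNA-seq counts. Over the 76 antisense RNAs left by the restriction above, the median was 0.06, with 12 higher and 13 lower. CCDC144NL-AS1, of 132 kb, had 1828 and 1821 against 3882, a log2 ratio of 2.95.

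Hosts of small nucleolar RNAs and of microRNAs differed in median ratio and also in length. The SNHG list held mostly noncoding transcripts whose introns hold small nucleolar RNAs, with the protein-coding host TAF1D. Its median log2 ratio was 0.50 over the 25 compared of 33 listed, 1.85 above the median of their length bins. Of the 25, 2 were higher and 2 lower (8% each), against 14.1% and 17.5% of all genes. SNHG22 had 612 and 559 iCLIP counts against 627 in RNA-seq, a log2 ratio of 3.94, and ZFAS1 had 235 and 165 against 646, a log2 ratio of 2.35. DANCR was lower, with 11 and 12 against 1560, a log2 ratio of -3.01. The microRNA host genes, a list made after their values were seen, had a median of 3.46 over 17 genes, with 11 higher (64.7%) and 1 lower (5.88%). That list lay 2.58 above the median of its length bins. Its median length was 29.5 kb, against 6.82 kb for the SNHG list. Over the 3 microRNA host genes with at least 200 RNA-seq counts the median was -1.84. A host transcript is cut in the nucleus to free the hairpins of its microRNAs, and its gene count covers the whole transcript, not the mature microRNA.

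Some of the higher host genes carry microRNAs that share a seed, the bases 2 to 8 that pair with targets. The mature sequences, from RefSeq on GRCh38.p14, are shown 5′ to 3′ with the seed in capitals, so that the families carried by these hosts can be seen. MIR222HG carries the first pair below, at chrX:45746180-45746202 and chrX:45747036-45747056 on the minus strand. MIRLET7BHG carries the second pair, at chr22:46112752-46112773 and chr22:46113691-46113712 on the plus strand, and MIR34AHG carries the last, at chr1:9151735-9151756 on the minus strand.
miR-221-3p: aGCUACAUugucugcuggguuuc
miR-222-3p: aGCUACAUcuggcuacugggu
let-7a-5p: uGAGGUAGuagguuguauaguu
let-7b-5p: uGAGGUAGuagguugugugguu
miR-34a-5p: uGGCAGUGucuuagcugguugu

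MIR222HG had 191 and 185 iCLIP counts against 89 in RNA-seq, a log2 ratio of 5.11. MIRLET7BHG had 216 and 265 against 181, a log2 ratio of 4.45, and MIR34AHG had 57 and 61 against 148, a log2 ratio of 2.72. All 3 hosts were higher in both iCLIP libraries. The let-7 microRNAs restrain growth genes, and miR-34a is a target of p53. MIR100HG, which also carries a let-7a hairpin, had 193 and 170 against 84, a log2 ratio of 5.15. The lower host, MIR497HG, had 3 and 3 counts against 343, a call that was lost with DESeq2.

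Ribosomal protein genes were lower nearly without exception, and about as many translation factors were lower as were not called. Of 79 ribosomal protein genes listed, 66 were compared, 11 were missing from the iCLIP tables and 2 had too few RNA-seq counts. Of the 66, 61 were lower (92.4%) and none was higher, against 17.5% and 14.1% of all genes. Their median log2 ratio was -4.72, which is 2.51 below the median of their length bins. Together they took 0.190% of the iCLIP and 3.50% of the RNA-seq gene counts. RPL4 had 34 and 35 iCLIP counts against 26259 in RNA-seq, RPLP1 8 and 12 against 20620, and RPS2 25 and 23 against 18051. The 49 translation factors compared of 113 listed had a median of -2.33, with 23 lower (46.9%) and 25 not called. EEF1A1, the main elongation factor, had 36 and 30 against 57992, a log2 ratio of -6.73, and PABPC1, the cytoplasmic poly(A)-binding protein, had 89 and 100 against 32583, a log2 ratio of -4.39. EIF4G3 was the 1 higher factor, with 198 and 217 against 657, a log2 ratio of 2.38, and it is 370 kb long.

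The mitochondrial genome gave the lowest median of all classes but was split by transcript. Of 36 mitochondrially encoded genes listed, 20 were compared, with a median log2 ratio of -6.48. Of the 20, 14 were lower (70%) and none was higher, against 17.5% and 14.1% of all genes. The 12 mRNAs made from the heavy strand lay between -8.04 for MT-CO1 and -4.63 for MT-ND5. MT-ND6, the mRNA made from the light strand, had 617 and 638 iCLIP counts against 9648 in RNA-seq, a log2 ratio of 0.10. The large ribosomal RNA MT-RNR2 had 3637 and 6417 against 100037, a log2 ratio of -0.27. Its shares of 0.465% and 0.802% in the iCLIP libraries lay on either side of the RNA-seq share of 0.769%, so the pair gave no common direction. The small ribosomal RNA MT-RNR1 had 116 and 150 against 11529, a log2 ratio of -2.39. Light-strand RNA lies opposite the heavy-strand genes, so the limit on strands above holds here as well.

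Nuclear genes for the same respiratory chain were also low. The 60 compared of 119 listed had a median log2 ratio of -2.67. Of the 60, 29 were lower (48.3%) and 3 higher (5%), against 17.5% and 14.1% of all genes. ATP5F1B, a subunit of ATP synthase, had 6 and 12 iCLIP counts against 4781 in RNA-seq, a log2 ratio of -4.97. NDUFA10, at 133 kb, was higher with 290 and 331 against 726, a log2 ratio of 2.82. The other higher genes were NDUFAF2 and NDUFAF5, which help to assemble complex I, and the NDUFAF2 call was lost with TMM scaling.

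In the lists of chaperones, proteasome subunits, glycolysis, mitosis and actin genes, every called gene was lower. Of 21 chaperone genes compared, 20 were lower (95.2%) and none higher, against 17.5% and 14.1% of all genes. Their median log2 ratio was -3.76, 3.16 below their length bins. HSPA8 had 22 and 36 iCLIP counts against 20714, and HSP90AB1 150 and 156 against 27106, log2 ratios of -5.43 and -3.43. Of 33 proteasome subunits 20 were lower (60.6%), and of 16 glycolysis genes 8 (50%). Of 31 genes of G2 phase and mitosis 13 were lower (41.9%), and of 26 actin cytoskeleton genes 11 (42.3%). None in these 4 lists was higher. Their medians were -2.97, -2.35, -2.08 and -1.69. The glycolysis median over the same 16 genes was -3.14 in iCLIP library 1 and -2.36 in library 2. Without genes that have a strong overlapping partner or differing lengths, the glycolysis median was -4.20 over 10 genes and the proteasome median -2.22 over 26. In the glycolysis list the 4 genes with the most RNA-seq counts, GAPDH, PKM, ENO1 and LDHA, had log2 ratios of -7.14, -4.09, -5.86 and -6.86. ACTN1, an alpha-actinin of 105 kb, was not low, with 1137 and 1026 against 11257, a log2 ratio of 0.66. The replication-dependent histones, whose mRNAs have no introns, had 8 of 48 genes with enough RNA-seq counts. Of the 8, 2 were lower (25%, against 17.5% of all genes).

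**Figure D5:**
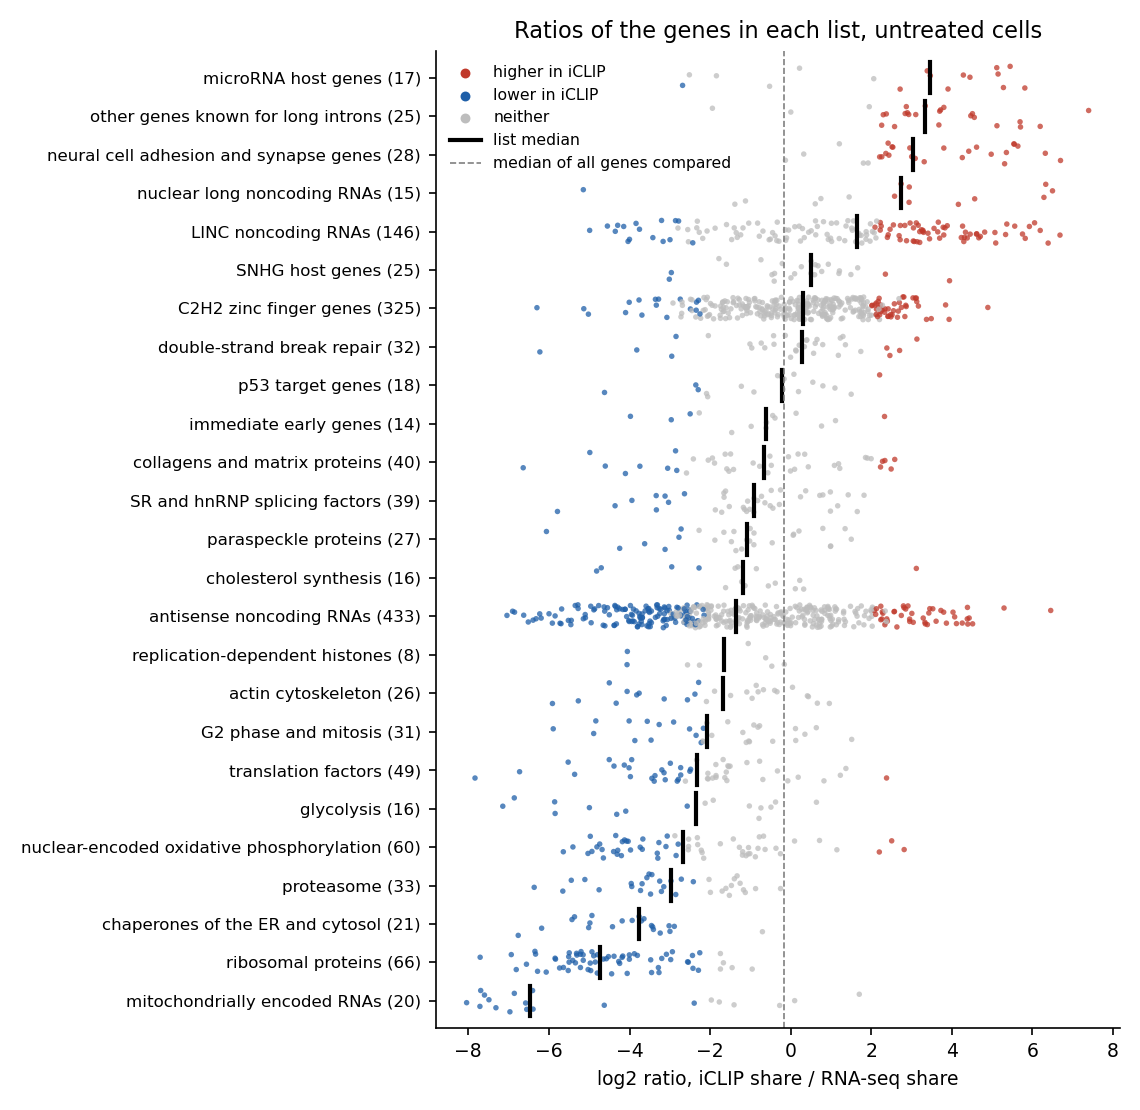
Log2 ratio of each gene (points; red higher, blue lower, grey neither) in 25 gene lists, with the number of genes in brackets, the list median as a black bar and the median of all 11146 genes as a dashed line. Mitochondrially encoded RNAs, at -6.48, ribosomal proteins, at -4.72, and chaperones, at -3.76, lie lowest, and lists of long genes and microRNA hosts lie highest.

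Genes known for long introns lay at the other end. The neural adhesion and synapse genes are a group of very long genes with few mature transcripts in most cells. Of 44 listed, 28 were compared, with a median log2 ratio of 3.05. Of the 28, 23 were higher (82.1%) and none was lower, against 14.1% and 17.5% of all genes. GRID1, a glutamate receptor gene, had 605 and 562 iCLIP counts against 242, and NRXN3, a neurexin, had 272 and 291 against 113, log2 ratios of 5.31 and 5.35. The list lay 0.01 below the median of its length bins, so these genes had the ratios usual for their length. CDH2, which encodes N-cadherin, had 98 and 89 against 1689, a log2 ratio of -0.13, the lowest of the list. Of 25 other genes known for long introns, 22 were higher (88%) and none was lower. Among the higher ones were AUTS2 with 1553 and 1496 against 1101, the fragile site gene WWOX with 1029 and 1046 against 330, and OSBPL10 with 2182 and 2033 against 4748. COL4A2, a basement membrane collagen of 207 kb, was not higher, with 150 and 147 against 9410 and a log2 ratio of -1.94.

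The lists nearest to the biology of TIRR and NEAT1 did not stand at either end. Of 32 double-strand break repair genes compared, 4 were higher and 4 lower (12.5% each), against 14.1% and 17.5% of all genes. Their median log2 ratio was 0.28. The checkpoint kinase gene ATR had 90 and 148 iCLIP counts against 375, a log2 ratio of 2.39, and LIG4, the ligase of end joining, had 118 and 94 against 199, a log2 ratio of 3.13. H2AX, the histone marked at breaks, had 3 and 2 against 3383, and XRCC6, which encodes Ku70, had 53 and 70 against 7305, log2 ratios of -6.22 and -2.85. ATM and BRCA1 had log2 ratios of 1.30 and 0.13 and were not called. Of 27 paraspeckle protein genes compared, 6 were lower (22.2%) and none higher, with a median of -1.09. NONO, a core paraspeckle protein, had 30 and 33 against 9896, a log2 ratio of -4.24, while PSPC1, its relative, had 90 and 79 against 700, a log2 ratio of 0.99.

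Genes for splicing regulators were lower about as often as all genes. Of 39 SR and hnRNP genes compared, 8 were lower (20.5%, against 17.5% of all genes) and none higher, with a median log2 ratio of -0.91, 0.11 above their length bins. SRSF2 had 24 and 25 iCLIP counts against 4118, a log2 ratio of -3.34, while SRSF5 had 487 and 446 against 2175, a log2 ratio of 1.82. SRRM2, which scaffolds nuclear speckles, had 806 and 914 against 7155, a log2 ratio of 0.98. Of 325 C2H2 zinc finger genes, 43 were higher (13.2%, against 14.1% of all genes) and 17 lower (5.23%, against 17.5%), with a median of 0.31, 0.81 above their length bins. ZNF638 had 299 and 302 against 1821, a log2 ratio of 1.44 that reached no call.

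Without regard to length, the p53 target and matrix genes were lower about as often as all genes, of which 17.5% were lower and 14.1% higher. Of 18 p53 target genes compared, 3 were lower (16.7%) and 1 higher (5.56%), with a median log2 ratio of -0.21. CDKN1A, the gene of the cyclin-dependent kinase inhibitor p21, had 21 and 34 iCLIP counts against 2335, and BBC3, which encodes PUMA, had 58 and 45 against 184, log2 ratios of -2.35 and 2.21. The CDKN1A call was lost with 2 added to each count and the BBC3 call with TMM scaling. Of 14 immediate early genes, 3 were lower (21.4%) and 1, NR4A1, was higher (7.14%). Of 40 collagen and matrix genes, 8 were lower and 5 higher (12.5%). TIMP1, a protease inhibitor, had 7 and 11 against 15158 and FN1, fibronectin, 164 and 168 against 22704, log2 ratios of -6.64 and -3.05, while COL22A1, at 326 kb, had 167 and 189 against 580, a log2 ratio of 2.34. Of 16 cholesterol synthesis genes, 4 were lower (25%) and 1, TM7SF2, was higher (6.25%).

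Genes with many iCLIP counts for their length were not all high in ratio. From 30 to 100 kb, SLC12A7, a potassium-chloride transporter, had 1114 and 1651 iCLIP counts against 4319, a log2 ratio of 2.40, and RRM2, a subunit of ribonucleotide reductase, had 1214 and 1376 against 5722, a log2 ratio of 1.90 that reached no call.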

How the data were processed

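Gene tables were deposited for each library, with 1 row per gene and a cDNA count; the percent column beside it is, per the file headers, the same cDNA number as a percent of the library, and the authors' total includes an intergenic row. The deposited counts, not the percent values, were used. The genome build hg38 and, for RNA-seq, kallisto 0.44.0 come from the submitters' processing notes. Duplicate handling, read alignment, gene annotation and strandedness were not given in the sources used here.

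The intergenic row (30.6%, 30.8% and 44.4% of counts) was left out of library sizes and tests. Genes were joined by gene ID. Each gene's share of gene counts was taken per library, with 0.5 added to each count, and the log2 ratio used the summed iCLIP counts. Tests used edgeR 4.0.16 (quasi-likelihood F test, two-sided, library sizes set to gene totals, Benjamini-Hochberg over all 11146 genes) in R 4.3.3, on the 2 iCLIP and 1 RNA-seq libraries, with DESeq2 1.42.0 as an alternative. The test was also run on simulated counts, with a looser fold rule than the 4-fold one. There 93.9% of 49 genes simulated 4-fold higher and 62.5% of 48 simulated 4-fold lower were called. These shares hold for the looser rule and do not describe the 4-fold rule used for the calls. The simulated RNA-seq library was given the spread of the fit, so the assumption that it varies like the iCLIP pair was not tested. Intervals are exact conditional 95% and cover counting error only; cDNA counts are taken as deposited. Correlations and lists carry no test. Gene class and positions came from RefSeq GRCh38.p14 by symbol.

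Genes named were NEAT1, MALAT1, NUDT16L1, TP53BP1, the 15 highest and 15 lowest called ratios with an approved symbol, up to 4 members of each list with the most RNA-seq counts and up to 3 called against its direction, and the 3 with the most iCLIP counts per length bin. Some genes that this rule names are not reported here. Other list members named were chosen after their values were seen. The genes compared and the 26 lists were chosen with earlier results of these data known. The lists of small nuclear and small nucleolar RNAs had no gene with 50 RNA-seq counts under their symbols.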

Additional observations from a re-analysis of the deposited data

Results flagged for a closer look

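FAM95A had 22429 summed untreated iCLIP counts, UBBP4 2400 and CRYBB2P1 1413, and none of these 3 genes was listed in either RNA-seq library, so they entered no comparison. They were among 5205 genes with untreated iCLIP counts and no row in the RNA-seq tables, which together held 64186 counts, or 4.06% of the iCLIP gene counts. By count FAM95A would have stood between NEAT1 and MALAT1. Whether the RNA-seq gene models held these genes was not tested.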

How the results depend on the processing

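No called named gene changed direction under the alternatives run, while 4 uncalled named genes with ratios near 0 changed sign. The medians of 6 lists changed sign: microRNA host genes (-1.84 at a minimum of 200 RNA-seq counts), histones (1.49), antisense RNAs (0.85) and matrix genes (0.35) with no minimum, C2H2 genes (-0.030) and break repair genes (-0.0028) with missing genes as 0, and antisense RNAs again (0.06) without strong partners. TMM scaling (1499 higher, 2012 lower), DESeq2 (1558 and 1600), all 6 libraries in 1 fit and lengths within 1.1-fold left the counts within 1.5 times of 1571 and 1950. The count of higher genes was 2727 at a minimum of 10 RNA-seq counts, 746 at 200 and 4567 with none, and rho with length was 0.546, 0.660 and 0.311. A 2-fold rule gave 3012 higher and 3486 lower genes, and an 8-fold rule 706 and 937. Counting genes missing from iCLIP as 0 gave 5512 lower genes and a rho of 0.647. With at least 50 RNA-seq counts, a gene set to 0 is past the 4-fold rule by construction, so that count is no separate result. The same correlation was 0.597 for genes in both iCLIP libraries, 0.605 to 0.606 with 1 iCLIP library left out (then 1731 to 1738 higher and 2037 to 2045 lower, with no test), 0.620 with 2 added to each count, 0.671 for protein-coding genes, 0.620 with RefSeq spans and 0.625 with the RNA-seq table's lengths. Over 5373 genes that overlap no other, 699 were higher (13.0%), 817 lower (15.2%) and rho was 0.648. Over the 7399 genes without a strong partner or differing lengths, 1019 were lower and rho was 0.658. A smaller set of genes or another fold makes these counts differ by construction. The sets with a minimum of 10 RNA-seq counts (14217 genes), with none (18972) and with missing genes as 0 (14708) were larger. The fall of rho to 0.311 came with the set that had no minimum. Of the named genes, 7 lost 8 calls in all, under TMM scaling (NDUFAF2, BBC3), 2 added to each count (SNHG19, CDKN1A) or DESeq2 (SNHG19, ZNF410, OIP5-AS1, MIR497HG), and H1-2 gained one under TMM scaling. The log2 ratio of 14 named genes moved by more than the replicate spread without iCLIP replicate 1 and those of 8 without replicate 2. No paired analysis was possible because the RNA-seq label carries no replicate number.

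Depth limits the lower genes most: their median was 7 summed iCLIP counts, against 218 for the higher genes. The RNA-seq arm had 1 library, and no control pull-down was analysed here.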
